A study of Sus scrofa with 12 samples.

Results

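The genes described here encode the killing machinery of cytotoxic lymphocytes, and were chosen by name as a set of 8: GZMA, GZMB, GZMK, PRF1, NKG7, KLRK1, KLRB1 and FASLG. Of these, 7 were named in the platform table of the array, out of 10912 genes named on it, and FASLG was not analysed here. Expression was measured in infarcted heart tissue of 12 female Large White pigs with acute myocardial infarction (AMI), produced by closed-chest occlusion and reperfusion of a coronary artery, each pig having 1 array. There were 3 biogroups of 4 pigs. AMI/S-endMSCs* pigs received, into the pericardial sac, the secretome of mesenchymal stromal cells that had been cultured with IFNγ and TNFα (priming). AMI/S-endMSCs pigs received the secretome of the same kind of cells without priming, and AMI/Placebo pigs the vehicle. The cells came from the menstrual blood of human donors, so that both secretomes were human material in a pig host. All 12 hearts carried an infarct, no uninfarcted heart was among them, and samples date from day 7 post-therapy.

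Cytotoxic T lymphocytes and natural killer (NK) cells kill by releasing granules onto a target cell. In the granules, perforin (PRF1) makes pores in the target membrane, and granzymes, a family of serine proteases, enter the target and cleave proteins there, which in the case of granzyme B (GZMB) starts apoptosis. NKG7 lies in the granule membrane and takes part in granule release, KLRK1 (the receptor NKG2D) and KLRB1 (CD161) are lectin-like receptors at the cell surface, and Fas ligand (FASLG) kills through the receptor FAS without granules. After an infarct such lymphocytes enter the injured wall together with far larger numbers of neutrophils, monocytes and macrophages.

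The values are log2 expression values from Robust Multichip Average (RMA), and the median over all probe sets of their mean in the 12 pigs was 2.78. PRF1 averaged 1.64 and was dim, with 11.1% of all probe sets dimmer. GZMA averaged 1.96 (22.4% dimmer), KLRB1 2.09 (27.4% dimmer), GZMK 2.19 (31.1% dimmer) and KLRK1 2.23 (32.7% dimmer). GZMB averaged 2.91 (53.4% dimmer) and NKG7 3.72 (69.6% dimmer), and these were the 2 of the 7 members above the median. The brightness of a probe set depends on its probes as well as on its RNA, so this is not an order of RNA amounts.

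A gauge of the dim end of the array was taken from 21 genes used by other organs (retina, testis, pituitary, thyroid, kidney, pancreas and enamel), of which 10 were named. Their means lay between 1.31 and 2.32, with a median of 1.83. PRF1 was brighter than 3 of these 10 genes, GZMA than 6, KLRB1 than 8, and GZMK and KLRK1 than 9. GZMB and NKG7 were brighter than all 10. The means of PRF1, GZMA, KLRB1, GZMK and KLRK1 thus lay within the range of genes used by other organs, where brightness does not show that the transcript was present.

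The label of the set was set against markers of T cells and NK cells. Of 19 listed T cell markers 14 were measured, and 7 of them were on average brighter than the median probe set. CD2, a T and NK cell adhesion receptor, averaged 4.55, while CD3E, a chain of the T cell receptor complex, averaged 2.09 and CD8A, the coreceptor of cytotoxic T cells, 2.57. Among NK genes, NCR1 (NKp46) averaged 4.44, between 3.76 and 5.80 in the 12 pigs, and KLRD1 (CD94) averaged 2.08. Some defining T cell markers, CD3E among them, were therefore as dim as the gauge genes. One array, AMI/S-endMSCs replicate 1, stood apart from the others: its mean correlation with them was 0.821, where the other 11 had 0.875 to 0.911. It also had the highest median value (2.99, others 2.69 to 2.92) and the smallest interquartile range (1.66, others 1.80 to 2.51). No member was called with or without it. In pieces of tissue, fewer lymphocytes and less RNA per lymphocyte cannot be told apart.

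**Figure D1:**
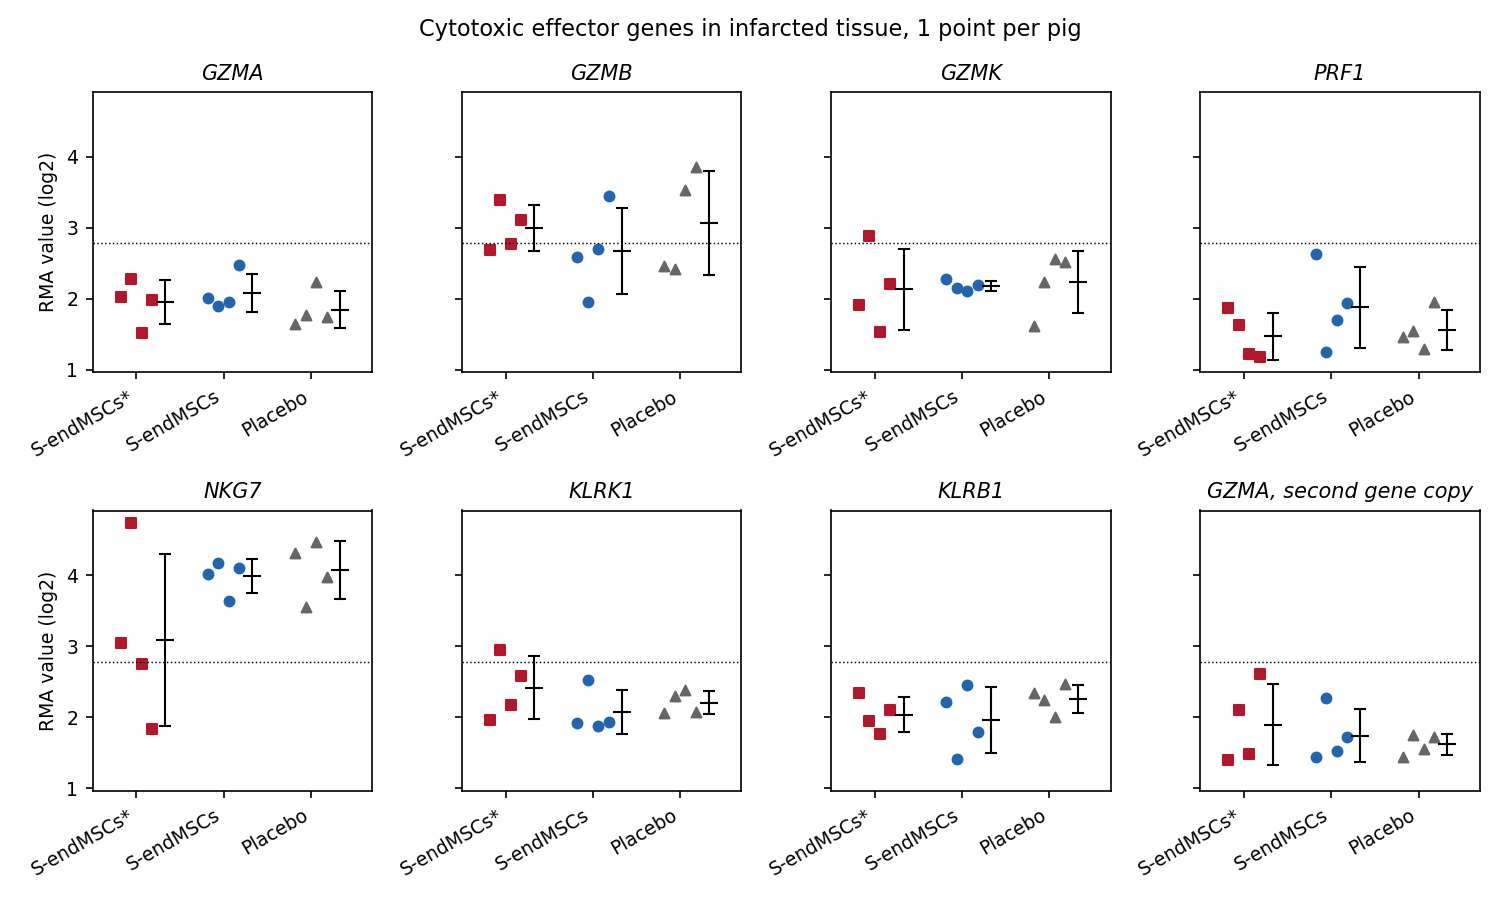
RMA values (log2) of the 7 measured effector genes and of the second GZMA gene copy, with 1 point per pig. Squares are AMI/S-endMSCs*, circles AMI/S-endMSCs and triangles AMI/Placebo (4 pigs each), bars are the mean ± SD, and the dotted line is the median of all probe sets (2.78). The biogroups overlap in every panel, most values other than those of NKG7 and GZMB lie under the line, and NKG7 has its widest spread in AMI/S-endMSCs*.

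None of the 7 members differed between biogroups by the threshold of the study, an unadjusted p under 0.05 in limma. That holds for all 21 comparisons (7 genes in 3 pairs of biogroups), and in all 21 the values of the biogroups overlapped. Full separation of 4 against 4 pigs is rare (exact permutation p = 0.0286), so overlap does not set the members apart from other genes. The exact permutation test gave no p under 0.05 either, with 0.171 as the smallest. Among all 10912 named genes, 484 passed the unadjusted threshold for AMI/S-endMSCs against AMI/Placebo (4.44%), 353 for AMI/S-endMSCs* against AMI/Placebo (3.23%) and 795 for AMI/S-endMSCs* against AMI/S-endMSCs (7.29%). A count of 0 among 7 genes lies near these shares and does not set the members apart from other genes. No probe set passed after Benjamini-Hochberg adjustment over all 27558, where the smallest adjusted p of a member in limma was 0.709. The 95% intervals of the 21 differences reached between 0.51 and 0.99 log2 units to either side. Changes of that size or smaller, and some larger ones, could thus be missed with 4 pigs per biogroup.

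**Figure D2:**
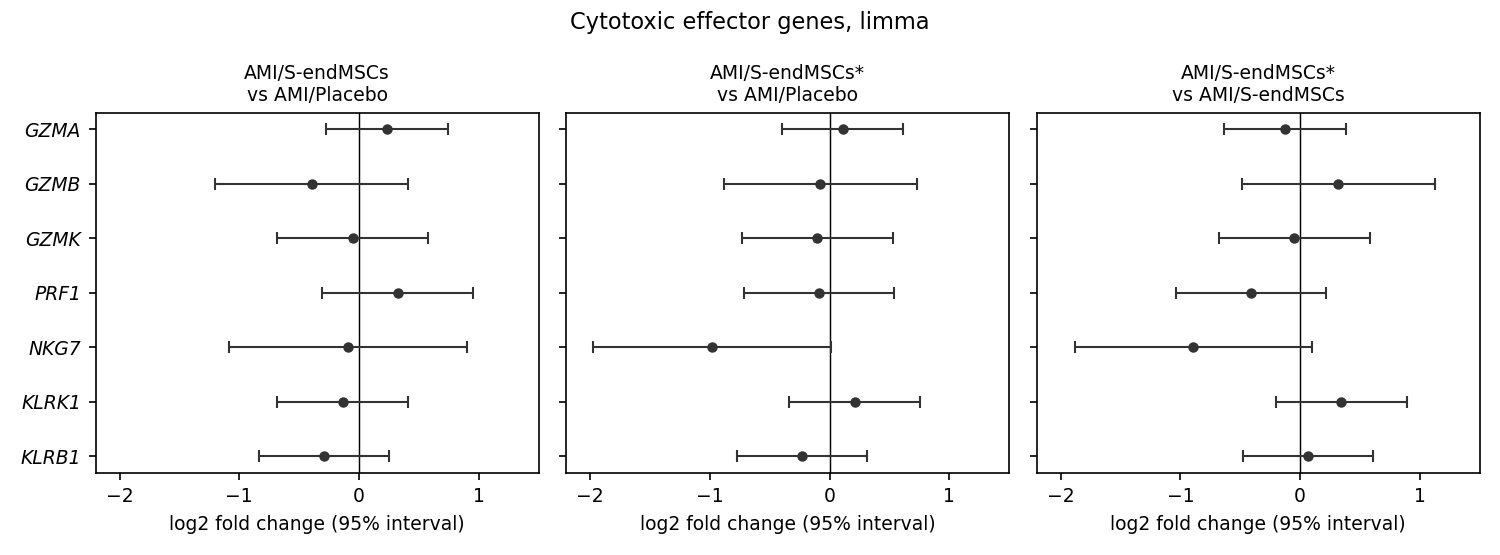
Log2 fold change of each measured member (point) with its 95% interval (bar) from limma, for the 3 comparisons, the first-named biogroup over the second. All 21 intervals include 0, and the estimates farthest from it are those of NKG7 in AMI/S-endMSCs* against AMI/Placebo (-0.98) and against AMI/S-endMSCs (-0.89).

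NKG7 came closest to a difference. Its values were 3.05, 4.74, 2.76 and 1.83 in the AMI/S-endMSCs* pigs, 4.02, 4.18, 3.64 and 4.11 in the AMI/S-endMSCs pigs, and 4.31, 3.56, 4.47 and 3.97 in the AMI/Placebo pigs (replicates 1 to 4 each). In 3 of the 4 AMI/S-endMSCs* pigs it was below every pig of the other biogroups, and replicate 2 of AMI/S-endMSCs* held the highest value of all 12. The mean was 3.10 ± 1.21 in AMI/S-endMSCs*, 3.99 ± 0.240 in AMI/S-endMSCs and 4.08 ± 0.405 in AMI/Placebo (SD, n = 4 each).

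The log2 fold change of NKG7 was -0.98 for AMI/S-endMSCs* against AMI/Placebo (SE 0.462, 95% interval -1.97 to 0.01, limma p = 0.0516, exact two-sided permutation p = 0.171, limma adjusted p = 1.0). It was -0.89 for AMI/S-endMSCs* against AMI/S-endMSCs (SE 0.462, 95% interval -1.88 to 0.10, limma p = 0.0741, exact permutation p = 0.20) and -0.09 for AMI/S-endMSCs against AMI/Placebo (95% interval -1.08 to 0.90, exact permutation p = 0.686). The smallest p that the exact test allows for 4 against 4 pigs is 0.0286. The fold changes of AMI/S-endMSCs* against AMI/Placebo and against AMI/S-endMSCs stayed negative whichever single pig was left out. Their size and their side of the threshold depended on single pigs. Without AMI/S-endMSCs* replicate 2 the fold change was -1.53 against AMI/Placebo and -1.44 against AMI/S-endMSCs, both past the unadjusted threshold in limma. Without AMI/Placebo replicate 2 it was -1.16 against AMI/Placebo, also past it. Without AMI/S-endMSCs* replicate 4, the pig with the lowest value, it was -0.56 against AMI/Placebo and -0.47 against AMI/S-endMSCs, not past it. NKG7 also passed the unadjusted threshold against AMI/Placebo after quantile normalization of the probe set values (-1.01) and with array weights (-1.02), and against AMI/S-endMSCs after quantile normalization (-1.04).

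The pigs with little NKG7 signal were also those with much cardiomyocyte signal. The mean of 15 measured cardiomyocyte markers, each centred on its own mean, was 1.79, -1.17, 1.67 and 1.10 in the AMI/S-endMSCs* pigs, against -1.74, -0.356, -0.969 and 0.0876 in AMI/S-endMSCs and -0.200, 0.483, -1.34 and 0.652 in AMI/Placebo. Thus the 3 AMI/S-endMSCs* pigs low in NKG7 had the highest marker means of all 12, and replicate 2, highest in NKG7, had the third lowest. All 15 fold changes were positive in AMI/S-endMSCs* against AMI/S-endMSCs, and 11 of them were called (7.29% of named genes were called there). Among the 11 were MYH7, a heavy chain of cardiac myosin (1.81, 95% interval 0.37 to 3.26, limma adjusted p = 0.600), and MYL2, a ventricular myosin light chain (1.61, 95% interval 0.16 to 3.06, limma adjusted p = 0.643). Against AMI/Placebo all 15 fold changes of AMI/S-endMSCs* were positive too (median 0.97), also after median centring of the arrays (0.95) and quantile normalization (1.02). Of these 15, 1 was called as deposited (3.23% of named genes were called there) and 0 after median centring. For AMI/S-endMSCs against AMI/Placebo all 15 were negative (median -0.64), none called. ACTC1, cardiac actin, had 0.97 for AMI/S-endMSCs* against AMI/Placebo (95% interval -0.64 to 2.59) and -0.22 for AMI/S-endMSCs against AMI/Placebo. With the cardiomyocyte mean as a covariate, the fold change of NKG7 was -0.55 against AMI/Placebo and -0.16 against AMI/S-endMSCs, neither called.

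Over the 12 pigs, NKG7 was compared with 9 cell type marker means, with p-values from permutation tests adjusted over these 9 relations. None of the 9 was a mean of NK cell markers, so the relation of NKG7 to such a mean was not tested. With the macrophage and monocyte mean (11 of 14 markers measured) Pearson's r was 0.78 (permutation p = 0.00256, adjusted 0.0230) and Spearman's rho 0.65 (permutation p = 0.0257, adjusted 0.0770). With the cardiomyocyte mean r was -0.72 (permutation p = 0.00615, adjusted 0.0277) and rho -0.75 (permutation p = 0.00721, adjusted 0.0581). With the neutrophil mean (7 of 11 markers measured) r was 0.67 (permutation p = 0.0144, adjusted 0.0351) and rho 0.71 (permutation p = 0.0129, adjusted 0.0581). These relations thus passed the adjustment by r and not by rho. Without the 2 pigs farthest from the median NKG7 value r was 0.60, -0.68 and 0.55 with the 3 means in that order, and within biogroups, as deviations from the biogroup means, it was 0.68, -0.65 and 0.60. The T cell mean had r of 0.23 (permutation p = 0.492) and rho of 0.29 (permutation p = 0.369), and 0.62 without those 2 pigs. With 3 measured mast cell and basophil markers r was 0.67 (adjusted permutation p = 0.0351) and rho 0.50 (adjusted permutation p = 0.232), which became r = 0.43 without those 2 pigs, so that it rested on them. The other means gave r of 0.49 (fibroblast), 0.28 (B and plasma cell), 0.23 (red blood cell and platelet) and -0.03 (endothelial), none of them past an unadjusted permutation p of 0.05.

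**Figure D3:**
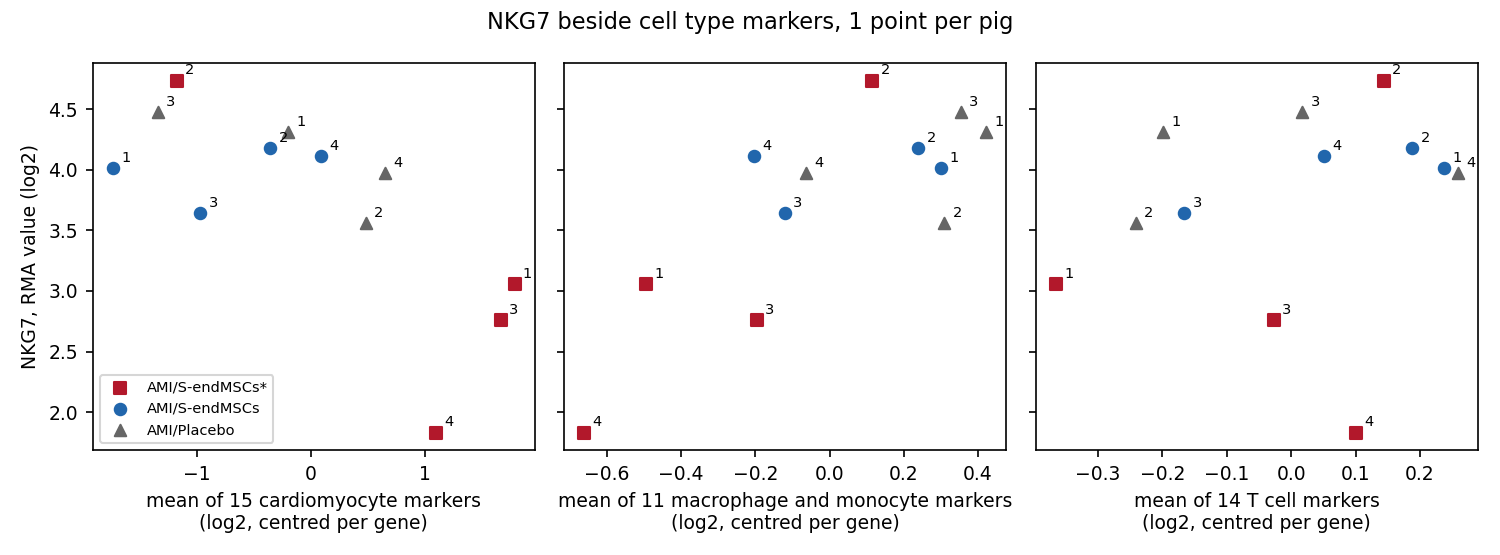
NKG7 (RMA value, log2, vertical axis) against the mean of the cardiomyocyte, macrophage and monocyte, and T cell markers (log2, each gene centred on its mean, horizontal axes), with 1 point per pig and the replicate number beside it. Replicates 1, 3 and 4 of AMI/S-endMSCs* (squares) lie at high cardiomyocyte and low NKG7 values. Pearson's r over the 12 pigs was -0.72, 0.78 and 0.23 from left to right.

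The macrophage and monocyte mean was -0.495, 0.115, -0.196 and -0.661 in AMI/S-endMSCs* pigs, 0.300, 0.239, -0.120 and -0.203 in AMI/S-endMSCs pigs, and 0.422, 0.310, 0.354 and -0.0646 in AMI/Placebo pigs. Of its 11 genes, 10 had negative fold changes and 1 a positive one in AMI/S-endMSCs* against AMI/Placebo (median -0.61), and the same counts held under both other scalings. As deposited 3 were called, all lower (3.23% of named genes were called there). These were C1QB, a chain of the complement component C1q, at -0.98 (95% interval -1.83 to -0.14), APOE, a lipid carrier, at -0.82 and AIF1, an actin-binding protein of macrophages, at -0.76. CSF1R, the receptor of macrophage colony-stimulating factor, had -0.74 (95% interval -1.51 to 0.02). Of the 7 neutrophil genes none was called in the same comparison, where 4 fold changes were positive and 3 negative (2 and 5 after median centring of the arrays, 3 and 4 after quantile normalization), with a median of 0.01 and S100A8 the lowest at -1.62 (95% interval -3.38 to 0.14). No T cell marker was called in any comparison, CD3E having -0.10 and CD8A 0.04 for AMI/S-endMSCs* against AMI/Placebo. With the T cell mean as a covariate NKG7 stood at -0.99 against AMI/Placebo and -0.81 against AMI/S-endMSCs, neither called. Beyond these fits with covariates, what part the cell makeup of the tissue pieces had in the NKG7 values was not tested.

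Among the granzymes, GZMB, which cleaves after aspartate, had values of 2.69, 3.40, 2.78 and 3.11 in AMI/S-endMSCs* pigs, 2.60, 1.96, 2.71 and 3.45 in AMI/S-endMSCs pigs, and 2.47, 2.42, 3.53 and 3.86 in AMI/Placebo pigs. The placebo pigs fell into 2 high and 2 low values, and their range held all but 1 of the 8 values of the treated pigs. The log2 fold change was -0.08 for AMI/S-endMSCs* against AMI/Placebo, -0.40 for AMI/S-endMSCs against AMI/Placebo and 0.32 for AMI/S-endMSCs* against AMI/S-endMSCs (SE 0.375 each), and the exact permutation test gave p = 0.857, p = 0.457 and p = 0.40 in that order. GZMB lies next to GZMH, its close relative, in the pig reference annotation, with no other protein-coding gene between them. GZMH averaged 1.64, 1.74 and 1.94 in AMI/S-endMSCs*, AMI/S-endMSCs and AMI/Placebo.

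GZMA, a granzyme with tryptase activity, had values of 2.03, 2.28, 1.53 and 1.99 in AMI/S-endMSCs* pigs, 2.01, 1.90, 1.95 and 2.47 in AMI/S-endMSCs pigs, and 1.65, 1.77, 2.24 and 1.74 in AMI/Placebo pigs. In each biogroup 1 pig stood off from the other 3, and the ranges overlapped throughout. The fold change was 0.11 for AMI/S-endMSCs* against AMI/Placebo (exact permutation p = 0.543), 0.23 for AMI/S-endMSCs against AMI/Placebo (p = 0.314) and -0.13 for AMI/S-endMSCs* against AMI/S-endMSCs (p = 0.543), with an SE of 0.236 each. A second probe set carries the name GZMA and belongs to another pig gene record that neighbours the first. It averaged 1.75, with 1.40, 2.10, 1.49 and 2.61 in AMI/S-endMSCs* pigs, 1.45, 2.28, 1.52 and 1.72 in AMI/S-endMSCs pigs, and 1.44, 1.76, 1.56 and 1.73 in AMI/Placebo pigs. Its 3 fold changes lay between 0.12 and 0.28, with none called. The 2 copies may share hybridising RNA, so that the signal of either GZMA gene alone is uncertain.

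GZMK, also a tryptase and typical of memory T cells and of one subset of NK cells in humans, had values of 1.92, 2.89, 1.53 and 2.21 in AMI/S-endMSCs* pigs, 2.28, 2.16, 2.11 and 2.19 in AMI/S-endMSCs pigs, and 1.62, 2.24, 2.57 and 2.52 in AMI/Placebo pigs. The AMI/S-endMSCs values lay between 2.11 and 2.28, while those of the other biogroups were spread more widely, with SDs of 0.572 in AMI/S-endMSCs*, 0.0712 in AMI/S-endMSCs and 0.433 in AMI/Placebo. The means of 2.14, 2.18 and 2.24 in the same order were nearly level, with fold changes between -0.10 and -0.05 (SE 0.294 each, exact permutation p from 0.743 to 0.914). GZMK neighbours the first GZMA gene in the annotation.

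PRF1 had values of 1.87, 1.63, 1.22 and 1.18 in AMI/S-endMSCs* pigs, 2.63, 1.26, 1.71 and 1.94 in AMI/S-endMSCs pigs, and 1.46, 1.54, 1.30 and 1.95 in AMI/Placebo pigs. The one value far above the rest was that of AMI/S-endMSCs replicate 1, the array that stood apart from the others. The fold change was -0.09 for AMI/S-endMSCs* against AMI/Placebo (exact permutation p = 0.686), 0.32 for AMI/S-endMSCs against AMI/Placebo (p = 0.429) and -0.41 for AMI/S-endMSCs* against AMI/S-endMSCs (p = 0.229), with an SE of 0.293 each. Without that array the second of these was 0.07 and the third -0.16. PRF1 was the dimmest member, at the level of the genes of other organs in all 3 biogroups.

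KLRK1 encodes NKG2D, the activating receptor for stress-induced ligands on damaged cells. Its values were 1.96, 2.96, 2.17 and 2.58 in AMI/S-endMSCs* pigs, 1.93, 2.53, 1.88 and 1.94 in AMI/S-endMSCs pigs, and 2.06, 2.30, 2.39 and 2.08 in AMI/Placebo pigs. Replicate 2 stood above the other pigs of AMI/S-endMSCs*, and replicate 2 above those of AMI/S-endMSCs, with all 3 biogroups overlapping. The fold change was 0.21 for AMI/S-endMSCs* against AMI/Placebo (exact permutation p = 0.457), -0.14 for AMI/S-endMSCs against AMI/Placebo (p = 0.486) and 0.34 for AMI/S-endMSCs* against AMI/S-endMSCs (p = 0.171), with an SE of 0.254 each. Its highest value was in replicate 2 of AMI/S-endMSCs*, which was also the highest of all 12 pigs in NKG7 and GZMK. KLRD1, its neighbour in the annotation, which pairs with NKG2 receptors of another kind, had 0.23, 0.30 and -0.08 for the same comparisons in that order, none called.

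KLRB1, an inhibitory receptor of NK cells that also marks T cell subsets in humans, had values of 2.35, 1.94, 1.76 and 2.10 in AMI/S-endMSCs* pigs, 2.22, 1.41, 2.46 and 1.80 in AMI/S-endMSCs pigs, and 2.34, 2.24, 2.0 and 2.47 in AMI/Placebo pigs. The placebo mean was the highest, with 2.04 ± 0.248 in AMI/S-endMSCs*, 1.97 ± 0.465 in AMI/S-endMSCs and 2.27 ± 0.199 in AMI/Placebo (SD, n = 4 each), but the ranges overlapped. The fold change was -0.23 for AMI/S-endMSCs* against AMI/Placebo (exact permutation p = 0.229), -0.29 for AMI/S-endMSCs against AMI/Placebo (p = 0.286) and 0.07 for AMI/S-endMSCs* against AMI/S-endMSCs (p = 0.83), with an SE of 0.254 each.

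By sign alone the members had no common direction. For AMI/S-endMSCs* against AMI/Placebo 2 of the 7 fold changes were positive and 5 negative, with a median of -0.09 (0.01 over all named genes). The same counts held for AMI/S-endMSCs against AMI/Placebo, with a median of -0.09 (0.01 over all named genes), and the placebo pigs are shared between these comparisons. The median of AMI/S-endMSCs against AMI/Placebo was -0.19 after median centring (-0.09 over all named genes) and also after quantile normalization, which gave 3 positive and 4 negative values. Between the secretome biogroups (AMI/S-endMSCs* over AMI/S-endMSCs) 3 were positive and 4 negative, with a median of -0.05 (-0.02 over all named genes), which became 4 positive and 3 negative both after median centring of the arrays (median 0.02, and 0.05 over all named genes) and after quantile normalization (median 0.05, and 0.01 over all named genes).

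From pig to pig the members moved together only loosely. Among their 21 pairs 17 had a positive Pearson's r over the 12 pigs, with r from -0.53 to 0.61 and a median of 0.21. The highest was that of GZMA with GZMK (r = 0.61, permutation p = 0.0336, adjusted over 21 pairs 0.417). Its rho was 0.50 (permutation p = 0.105), its r without the 2 pigs farthest from the median GZMA value 0.65, and its r within biogroups 0.68. GZMB and GZMK followed with r of 0.55 (rho 0.47), and GZMK and KLRK1 with 0.53 (rho 0.39). The lowest was PRF1 with KLRK1 (r = -0.53, permutation p = 0.0767, adjusted 0.417, and rho -0.66, permutation p = 0.0221, adjusted 0.464). No pair passed the adjustment. NKG7 had r between -0.10 and 0.45 with the other members.

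**Figure D4:**
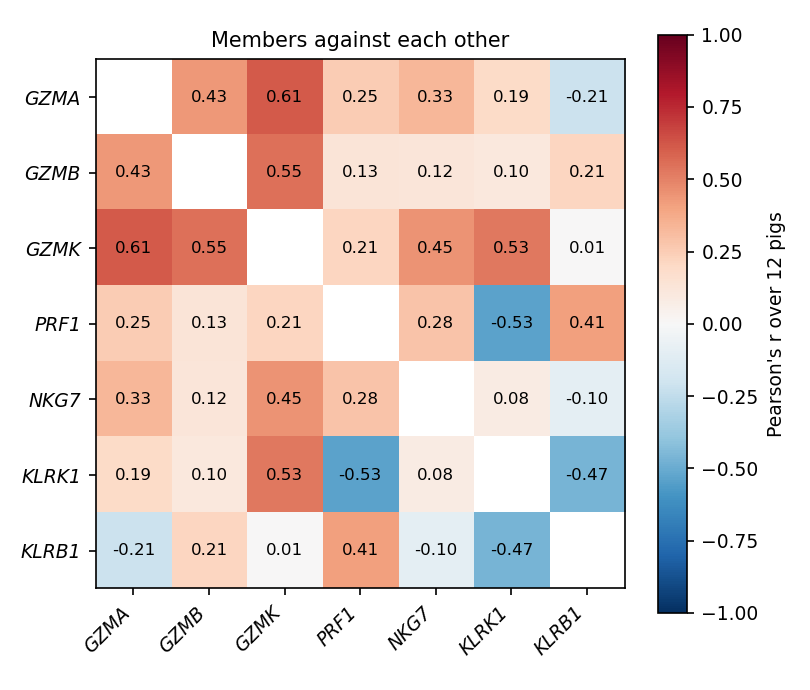
Pearson's r between the 7 measured members over the 12 pigs, 1 cell per pair (red positive, blue negative, scale from -1 to 1). The granzymes GZMA, GZMB and GZMK had r of 0.43 to 0.61 with each other, and the negative values involve KLRB1 or KLRK1.

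The mean of the 7 members, each centred on its own mean, was -0.126, 0.441, -0.429 and -0.250 in AMI/S-endMSCs* pigs, 0.132, -0.193, -0.0405 and 0.166 in AMI/S-endMSCs pigs, and -0.120, -0.0957, 0.250 and 0.265 in AMI/Placebo pigs. Both its extremes were AMI/S-endMSCs* pigs. NKG7 held 42.5% of the summed variance of the members and GZMB 19.5%. The r of a member with this mean, of which it is a part, was 0.84 for GZMK, 0.72 for NKG7, 0.65 for GZMB, 0.64 for GZMA, 0.47 for PRF1, 0.19 for KLRK1 and 0.18 for KLRB1. Among 5832 named genes brighter on average than the median probe set, the one whose values over the 12 arrays were most like this mean was CCL3L1, a chemokine that attracts lymphocytes and monocytes (r = 0.81). It had 3.45, 4.24, 3.10 and 3.49 in AMI/S-endMSCs* pigs, 3.38, 3.21, 3.46 and 3.40 in AMI/S-endMSCs pigs, and 3.60, 3.50, 3.84 and 3.76 in AMI/Placebo pigs, with the same pig highest and the same pig lowest as for the members. The next were SLC35F6 (r = 0.80), RBMX2 (0.77), CEMIP (0.76), NECAP2 (0.76), LRCH4 (0.76), IKBKE (0.76), a kinase of the interferon response, and AMDHD2 (0.75). These are the top of a ranking of many genes over 12 arrays and are given as a description.

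The other genes of the killing pathway were followed in 6 lists. Together 61 of their 93 genes were measured. For AMI/S-endMSCs* against AMI/Placebo 0 rose and 1 fell (1.64%, beside 3.23% of named genes), for AMI/S-endMSCs against AMI/Placebo 0 rose and 1 fell (1.64%, beside 4.44%), and for AMI/S-endMSCs* against AMI/S-endMSCs 3 rose and 1 fell (6.56%, beside 7.29%). The shares called were thus at or under those of all named genes.

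Of 9 further granule proteins 7 were measured and none was called. GNLY (granulysin), which lyses microbial membranes, averaged 2.97 in AMI/S-endMSCs*, 3.01 in AMI/S-endMSCs and 2.82 in AMI/Placebo. SRGN (serglycin), the proteoglycan that packs granule proteins, averaged 5.24 ± 1.87 in AMI/S-endMSCs*, 5.58 ± 0.738 in AMI/S-endMSCs and 5.30 ± 1.92 in AMI/Placebo (SD, n = 4 each), a spread far wider than its differences. CTSC, the protease that activates granzymes, averaged 6.77 in AMI/S-endMSCs*, 6.29 in AMI/S-endMSCs and 6.71 in AMI/Placebo. SRGN and CTSC are also made by myeloid cells. The list's median fold change was -0.06 for AMI/S-endMSCs* against AMI/Placebo, 0.09 for AMI/S-endMSCs against AMI/Placebo and -0.09 for AMI/S-endMSCs* against AMI/S-endMSCs, and the sign of each turned under at least 1 scaling (0.07, -0.01 and 0.02 after quantile normalization).

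In the machinery that docks and fuses granules (7 of 10 measured), none was called. All 7 fold changes were negative both for AMI/S-endMSCs* against AMI/Placebo (median -0.31) and for AMI/S-endMSCs against AMI/Placebo (median -0.24), comparisons that share their placebo pigs. After quantile normalization 6 of the 7 were negative in each, and after median centring all 7. Centring also lowered the share of positive fold changes among all named genes. For AMI/S-endMSCs against AMI/Placebo it was 50.7% as deposited and 38.9% after centring, and for AMI/S-endMSCs* against AMI/Placebo 51.0% and 47.0%. UNC13D, which primes granules for fusion, had -0.42 against AMI/Placebo in AMI/S-endMSCs* and -0.03 in AMI/S-endMSCs. RAB27A, which docks them, had -0.31 and -0.25 in that order, and STXBP2, a binding partner of syntaxin, -0.43 and -0.06. Between AMI/S-endMSCs* and AMI/S-endMSCs 3 of the 7 were positive and 4 negative, against 4 and 3 under both other scalings.

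Of 20 receptors and adaptors 13 were measured, and TYROBP alone was called. Its calls were for AMI/S-endMSCs* against AMI/Placebo (3.23% of named genes were called there) and against AMI/S-endMSCs (7.29%). TYROBP (DAP12) is the adaptor of several activating receptors and is used by macrophages as well as NK cells. It had 4.11, 5.63, 5.07 and 4.51 in AMI/S-endMSCs* pigs, 5.84, 5.84, 5.42 and 5.46 in AMI/S-endMSCs pigs, and 6.12, 5.84, 6.09 and 5.54 in AMI/Placebo pigs, and 3 of the 4 AMI/S-endMSCs* values lay below all 8 others. It fell by 1.07 in AMI/S-endMSCs* against AMI/Placebo (SE 0.302, 95% interval -1.72 to -0.42, limma adjusted p = 1.0) and by 0.81 against AMI/S-endMSCs (95% interval -1.46 to -0.17, limma adjusted p = 0.600). The highest AMI/S-endMSCs* value was again in replicate 2. The call against AMI/Placebo held under all 24 alternatives run, and that against AMI/S-endMSCs was lost under 3 of them, with the cardiomyocyte covariate and without AMI/S-endMSCs* replicate 1 or 4. HCST (DAP10), the adaptor that NKG2D uses, had -0.07 for AMI/S-endMSCs* against AMI/Placebo, 0.08 for AMI/S-endMSCs against AMI/Placebo and -0.15 between the secretome biogroups. The largest positive value in the list was that of NCR3 (NKp30) for AMI/S-endMSCs against AMI/Placebo, at 0.67 (95% interval -0.08 to 1.42).

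Of 11 ligands of these receptors 5 were measured, and 1 was called, between the secretome biogroups (7.29% of named genes were called there). CD58, the ligand of CD2, rose in AMI/S-endMSCs* against AMI/S-endMSCs by 0.82 (95% interval 0.02 to 1.62, limma adjusted p = 0.671), with 4.74, 4.10, 5.03 and 4.49 in AMI/S-endMSCs* pigs and 3.78, 3.72, 4.18 and 3.40 in AMI/S-endMSCs pigs. In AMI/Placebo pigs it had 4.74, 5.39, 3.67 and 3.63. The 2 secretome biogroups overlapped by 1 pig, and the call was lost under 12 of 24 alternatives, among them the fits without AMI/S-endMSCs* replicate 1, 3 or 4 and without AMI/S-endMSCs replicate 1, 2 or 4, with the replicate block, and with the cardiomyocyte or T cell mean as a covariate. ULBP1, a ligand of NKG2D, had 0.22 for AMI/S-endMSCs* against AMI/Placebo, 0.41 for AMI/S-endMSCs against AMI/Placebo and -0.19 between the secretome biogroups, none called. Its means of 2.01 in AMI/S-endMSCs*, 2.19 in AMI/S-endMSCs and 1.78 in AMI/Placebo lay within the range of the genes of other organs.

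In the death pathway of the target cell (10 of 19 measured), 2 genes were called between the secretome biogroups (7.29% of named genes were called there). For AMI/S-endMSCs against AMI/Placebo 1 was called (4.44% of named genes), and for AMI/S-endMSCs* against AMI/Placebo none (3.23%). CYCS, cytochrome c of the respiratory chain, which triggers caspases when released, rose in AMI/S-endMSCs* against AMI/S-endMSCs by 1.21 (95% interval 0.30 to 2.12, limma adjusted p = 0.590). It had 6.17, 5.43, 4.70 and 4.84 in AMI/S-endMSCs* pigs and 3.64, 4.37, 4.53 and 3.76 in AMI/S-endMSCs pigs. AMI/Placebo pigs had 3.77, 5.66, 5.34 and 4.40. DFFA, the inhibitor of the caspase-activated DNase, rose by 0.69 between the secretome biogroups (95% interval 0.08 to 1.29, limma adjusted p = 0.634). It had 4.05, 3.97, 4.29 and 4.17 in AMI/S-endMSCs* pigs and 2.96, 3.84, 3.68 and 3.27 in AMI/S-endMSCs pigs. It also fell by 0.66 in AMI/S-endMSCs against AMI/Placebo (95% interval -1.27 to -0.05), whose pigs had 4.02, 4.15, 4.77 and 3.46. The CYCS call was lost only without AMI/S-endMSCs* replicate 1, among 24 alternatives. The DFFA call between the secretome biogroups was lost under 7 of 24 alternatives, among them the fits without AMI/S-endMSCs* replicate 3 or 4 and without AMI/S-endMSCs replicate 1 or 4. The DFFA call against AMI/Placebo was lost under 8 of 24, among them the fits without AMI/S-endMSCs replicate 1 or 4 and without AMI/Placebo replicate 1, 2 or 3. The cardiomyocyte markers moved in the same comparison, as given above for NKG7, and their part in the CYCS and DFFA values was not tested beyond the fit with their mean as a covariate, in which the CYCS call held and the DFFA call between the secretome biogroups was lost. FAS, the receptor of Fas ligand, had 0.48 for AMI/S-endMSCs* against AMI/Placebo (95% interval -0.07 to 1.04) and 0.41 for AMI/S-endMSCs against AMI/Placebo (95% interval -0.14 to 0.97).

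Among 24 regulators and cytokines of the cytotoxic programme 19 were measured and none was called. EOMES and TBX21 (T-bet), the transcription factors of effector lymphocytes, had 0.05 and 0.47 for AMI/S-endMSCs* against AMI/Placebo, 0.20 and 0.51 for AMI/S-endMSCs against AMI/Placebo, and -0.14 and -0.04 for AMI/S-endMSCs* against AMI/S-endMSCs. IFNG averaged 1.73 in AMI/S-endMSCs*, 1.78 in AMI/S-endMSCs and 1.58 in AMI/Placebo, at the level of the genes of other organs. IL15, which sustains NK cells, averaged 2.20 in AMI/S-endMSCs*, 1.76 in AMI/S-endMSCs and 1.76 in AMI/Placebo, and PRDM1 (BLIMP-1) averaged 4.53, 5.47 and 4.92 in the same order, none of these differences called. The IL15 means also lay within the range of the genes of other organs. The signs in this list depended on the scaling of the arrays. For AMI/S-endMSCs against AMI/Placebo 17 of the 19 fold changes were positive as deposited (median 0.11, with 50.7% positive among all named genes), 11 after median centring (median 0.01, with 38.9%) and 9 after quantile normalization (median -0.02, with 47.7%). For AMI/S-endMSCs* against AMI/Placebo 11 were positive as deposited and 10 under either scaling, and against AMI/S-endMSCs 5 as deposited and 9 under either scaling. Only 4 of the 19 were brighter on average than the median probe set.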

How the data were processed

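Affymetrix porcine gene arrays were hybridised with RNA of infarcted heart tissue, 1 per animal. The authors made the deposited log2 values by Robust Multichip Average (RMA) in the Bioconductor package oligo, which corrects the background, normalizes between arrays and summarises the probes of each probe set (versions not given in the sources used here). Background and normalization are therefore those of the authors, and low values, where background dominates, are compressed, which understates fold changes of dim genes. The deposited arrays still differed in scale, with medians from 2.69 to 2.99 and interquartile ranges from 1.66 to 2.51. The number of arrays limits the precision.

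The table held 27558 probe sets, of which 11982 had 1 symbol in the platform table, 373 had several and 15203 were not listed there. Symbols were checked against the pig reference table by Entrez identifier (10965 matched, 0 changed). Where a gene had several probe sets, the brightest on average stood for it. Probe sequences were not used here.

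limma 3.58.1 (R 4.3.3) fitted 1 mean per biogroup, with the spread of each probe set estimated over the 12 arrays together, and 3 contrasts were taken. As in the study, a gene was called where p was under 0.05 before adjustment, with Benjamini-Hochberg adjustment over all probe sets beside it. The exact permutation test ran over the 70 splits of 4 against 4 pigs, two-sided, and correlations used 100000 permutations (scipy 1.17.1, Python 3.11.15). The fit was tested on simulated data. Replicates were separate pigs, and the labels name no batch.

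The genes named are the members, up to 3 called genes of each pathway list per comparison, the 8 genes most like the members' mean, and CD3E, CD8A and the brightest markers of cell types that moved with a member. Other genes of the lists, and the genes of other organs, were named after values were seen. Members and lists were chosen with earlier results of these data known. As alternatives, arrays were median centred, quantile normalized, weighted or left out singly, and dim probe sets were filtered out. Fits were also run with a variance trend or no moderation, on the compared biogroups only, with a replicate block, with the cardiomyocyte or T cell mean as a covariate, and on the mean over a gene's probe sets. A covariate of array interquartile range, all alternatives for TYROBP, CD58, CYCS and DFFA, and both scalings for the signs of the lists were added after seeing the data.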

Additional observations from a re-analysis of the deposited data

Results flagged for a closer look

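KLRK1 in AMI/S-endMSCs replicate 2, at 2.53 on the log2 scale, was the highest of its biogroup by a gap of 0.905 of the range of the 4 pigs, beyond the 95% critical value of Dixon's test. The other AMI/S-endMSCs pigs had 1.93, 1.88 and 1.94. This was 1 of 21 gene and biogroup combinations, and chance alone gives such a gap in about 1 of 20 of them.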

How the results depend on the processing

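In 24 alternatives, 489 fold changes of members were recomputed, and 483 kept their side of the threshold. The other 6 all belonged to NKG7 and passed the unadjusted p under 0.05. Between AMI/S-endMSCs* and AMI/Placebo the count of members called was 1 with quantile normalization and 1 with array weights, against 0 otherwise, and between 0 and 1 when single arrays were left out (1 without AMI/S-endMSCs* replicate 2 or AMI/Placebo replicate 2). Between AMI/S-endMSCs* and AMI/S-endMSCs it was 1 with quantile normalization, and between 0 and 1 with single arrays left out (1 without AMI/S-endMSCs* replicate 2). The dim filter kept 2 members, GZMB and NKG7. The sign of an uncalled fold change turned in 32 cases.

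Over all probe sets the counts moved more. For AMI/S-endMSCs against AMI/Placebo they were 1420, with 815 after the filter on dim probe sets (fewer were tested), 2621 with array weights, and 823 to 2904 with single arrays left out (823 without AMI/S-endMSCs replicate 1, 850 without AMI/Placebo replicate 2, 912 without AMI/Placebo replicate 1, 2518 without AMI/S-endMSCs replicate 3 and 2904 without AMI/Placebo replicate 4). For AMI/S-endMSCs* against AMI/Placebo they were 925, with 2251 with array weights, 1420 with the interquartile range as a covariate, and 657 to 1969 with single arrays left out (1969 without AMI/S-endMSCs* replicate 2 and 1575 without AMI/Placebo replicate 4). They were 2020 for AMI/S-endMSCs* against AMI/S-endMSCs, with 915 with the cardiomyocyte covariate, and 1292 to 2769 with single arrays left out (1292 without AMI/S-endMSCs* replicate 3 and 1338 without AMI/S-endMSCs replicate 1). Except for the filter, the cause was not tested. Median centring also moved the split of named genes called: for AMI/S-endMSCs against AMI/Placebo 284 were called higher and 200 lower as deposited, against 163 and 318 after centring and 226 and 251 after quantile normalization, and for AMI/S-endMSCs* against AMI/S-endMSCs 525 and 270 as deposited, against 629 and 181 after centring and 549 and 301 after quantile normalization.

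For pigs that share a replicate number, the r of their deviations from the biogroup means was -0.18 to 0.40 in 12 pairs, 4 of them over 0.1. Pairs of unlike number had -0.47 to 0.39. These values show no clear pairing by number and cannot exclude one. With the replicate number as a block, 0 members were called in each comparison. The probe sets called were 1630, 1075 and 2163 for AMI/S-endMSCs against AMI/Placebo, AMI/S-endMSCs* against AMI/Placebo and AMI/S-endMSCs* against AMI/S-endMSCs.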
